A study of Mus musculus with 6 samples.

Results

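Hsp90aa1 and Hsp90ab1 encode the inducible and the constitutive form of cytosolic HSP90. Accessible chromatin at and around both genes was examined in mouse leukaemia cells by ATAC-seq, in which a transposase cuts open DNA and leaves sequencing adapters there. All peaks lying wholly within chr12:110671000-110700000 (46 peaks, Hsp90aa1 locus) or chr17:45547000-45577000 (48 peaks, Hsp90ab1 locus) were taken, 94 of the 175929 peaks of the series. Coordinates are those of mm10. The loci were chosen by measured values: lower tags after tamoxifen in the same 6 libraries led to them. Differences between the groups at the members are therefore given as a description, with no test.

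HSP90 is an abundant chaperone that helps kinases, steroid receptors and other client proteins reach and keep an active fold, with the help of cochaperones such as Stip1, Cdc37, Ptges3 and Ahsa1. Heat shock factor 1 (HSF1), which HSP90 and HSP70 hold inactive in unstressed cells, binds heat shock elements, arrays of the 5-base unit NGAAN in alternating direction, and drives transcription of Hsp90aa1 and, to a lesser degree, Hsp90ab1. At strongly transcribed genes RNA polymerase II runs on past the polyadenylation site, so that the DNA beyond the 3′ end is transcribed as well.

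Both groups consisted of Usp18+/f UBCER-Cre leukaemia cells, which carry 1 floxed Usp18 allele, a Cre recombinase fused to an oestrogen receptor domain under the ubiquitin C promoter, and a retroviral AML1/ETO 9a (AE9a) oncogene marked by GFP. They derive from transduced fetal liver cells and were transplanted a second time into sub-lethally irradiated recipients. Once the recipients were ill, they were injected with oil (replicates 1, 2 and 4, 3 libraries) or with tamoxifen (replicates 1, 3 and 4, 3 libraries), the latter to delete the floxed allele. Lin- c-Kit+ GFP+ cells were sorted from the spleen on day 3 after the first injection. Only 1 group received tamoxifen, so that effects of the drug and of Usp18 loss cannot be told apart. The study's methods give 3 mice per group for the sorted sets. The labels do not tie single libraries to mice, and n counts libraries.

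The libraries held 57.4 M to 74.7 M tags, of which 17.5 M to 21.1 M lay in peaks. Over all peaks the median log2 fold change was -0.001. The Usp18 start-site peak held 415 to 458 normalised tags after oil and 438 to 469 after tamoxifen, which does not check the deletion, since the floxed part is not given in the sources used here. Of 8 genes fixed as progenitor markers 6 had a peak at the start site, all but Ptprc and Mpo, and their summed tags were 5536 to 5739 after oil and 5647 to 6215 after tamoxifen. By the rule given below 1 of their 16 peaks was called higher. The Cd34 peak had a mean of 94.6 tags after oil and 269.9 after tamoxifen. Of 8 mature myeloid genes 2 had one, with summed tags of 47.8 to 50.7 after oil and 50.7 to 70.8 after tamoxifen. Of 6 B-cell genes 2 had one (207 to 265 and 256 to 317 tags). Of 8 T-cell genes 3 had one, with 323 to 363 tags after oil and 270.2 to 304 after tamoxifen, whereas Cd3d, Cd3e, Cd4, Cd8a and Cd8b1 had none. All 8 erythroid genes had one, with 2459 to 2555 tags after oil and 2115 to 2468 after tamoxifen. The part of these cells in the results below was not tested, and with sorted bulk cells a change per cell and a change in the share of cells cannot be told apart.

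Both genes are read from the minus strand, Hsp90aa1 from chr12:110691036-110696395 and Hsp90ab1 from chr17:45567778-45573261 by the RefSeq annotation of the same build. Peaks within 500 bp of the start site were termed start-site peaks, the others body, upstream or downstream by their centre. The Hsp90aa1 window held 1 start-site, 8 body, 33 downstream and 4 upstream peaks, and the Hsp90ab1 window 2, 7, 37 and 2. The downstream stretches, which reached 20036 bp and 20778 bp past the 3′ ends, ran into other genes: 1700001K19Rik, which begins beyond the 3′ end of Hsp90aa1, and Slc35b2, Nfkbie and Tmem151b in turn beyond that of Hsp90ab1. By the order of their annotated parts, Slc35b2 and Nfkbie are read from the plus strand, towards Hsp90ab1. The genes 1700001K19Rik and Tmem151b are read from the minus strand, like the HSP90 genes.

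Sequences of 200 bases at the centre of 3 peaks are shown, on the plus strand of the RefSeq genome of the mm10 assembly (GRCm38). The first and the second belong to the peaks with the most negative log2 fold change at each locus, in intron 1 of 1700001K19Rik and in intron 3 of Nfkbie. The third belongs to the Hsp90ab1 start-site peak in intron 1 of Hsp90ab1, which is shown because it held 2 matches to the heat shock element. Capitals mark matches to GAANNTTC or TTCNNGAA, which are 2 units of the element.
Hsp90aa1 downstream peak, chr12:110678269-110678468: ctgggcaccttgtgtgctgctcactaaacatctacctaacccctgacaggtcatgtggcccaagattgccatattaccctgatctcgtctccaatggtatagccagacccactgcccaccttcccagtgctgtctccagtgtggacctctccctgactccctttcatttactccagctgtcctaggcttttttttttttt
Hsp90ab1 downstream peak, chr17:45559751-45559950: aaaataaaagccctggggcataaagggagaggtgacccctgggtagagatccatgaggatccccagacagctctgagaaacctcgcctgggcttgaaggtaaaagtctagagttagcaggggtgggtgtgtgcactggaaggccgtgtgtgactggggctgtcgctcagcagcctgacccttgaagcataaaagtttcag
Hsp90ab1 start-site peak, chr17:45572581-45572780: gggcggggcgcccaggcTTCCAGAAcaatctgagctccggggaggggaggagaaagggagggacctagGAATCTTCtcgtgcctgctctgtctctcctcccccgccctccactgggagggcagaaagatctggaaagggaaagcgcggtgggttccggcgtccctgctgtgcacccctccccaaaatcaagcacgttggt

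Neither downstream window held a match, and the Hsp90ab1 intron 1 window held 2. Of the 94 members, 5 had a 2-unit match on either strand in their central 200 bases (5.32%), against 8.25% of 175724 peaks of the series with a full window. These 5 were 1 upstream peak at Hsp90aa1 and 1 start-site, 1 body and 2 downstream peaks at Hsp90ab1. No member window held 3 units in alternating direction, a pattern that contains the 2-unit one and was present in 0.270% of all peaks. The 16 members called lower, described below, held no match (0 of 16). The median G+C content of the members was 51.0%, that of all peaks 50.5%. The Hsp90aa1 start-site window had a G+C content of 72.0% and 26 CpG dinucleotides, against medians of 61.5% and 13 over the start-site peaks of all protein-coding genes. A match describes these letters and not binding, and the absence of one says nothing of HSF1.

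Per length, the Hsp90aa1 start site was the most accessible place of its window, and that of Hsp90ab1 came second to the Slc35b2 start-site peak. The Hsp90aa1 start-site peak (exon 1, 5′ UTR) held 1152, 1099.95 and 1059 normalised tags in oil replicates 1, 2 and 4 and 1022, 1126 and 1067 in tamoxifen replicates 1, 3 and 4. The groups overlapped. Their means were 1104 ± 46.5 tags with oil and 1072 ± 52.3 with tamoxifen (SD, 3 libraries each), and the log2 fold change was -0.04 (SE 0.07). Normalised tags are deposited tags divided by a size factor per library, and fold changes with their SE are from DESeq2. In the deposited tags at most 3 were kept per position. Whether this held down values, and differences, at the densest peaks such as this one was not tested.

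The Hsp90ab1 start site was somewhat lower after tamoxifen. Its larger peak held 1412, 1404 and 1460.4 tags in the oil libraries and 1197, 1248 and 1326 in the tamoxifen libraries (log2 fold change -0.18, SE 0.07). The second one, that of intron 1 shown above, held 435, 465 and 511 tags against 361, 387 and 433 (log2 fold change -0.26, SE 0.11). In both peaks every tamoxifen library lay below every oil library. The upstream peaks together stood at 90.1% of oil at Hsp90aa1 and 92.8% at Hsp90ab1. Their log2 fold changes ran from -0.42 (SE 0.18) to -0.03 (SE 0.11) over the 4 peaks of Hsp90aa1, and were -0.28 (SE 0.12) and 0.01 (SE 0.11) at Hsp90ab1. In 1 upstream peak of each locus, those at -0.42 and -0.28, every tamoxifen value lay below every oil value. Of all peaks of the series 10.0% had this order. The Hsp90ab1 start site is also that of Gm35399.

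**Figure D1:**
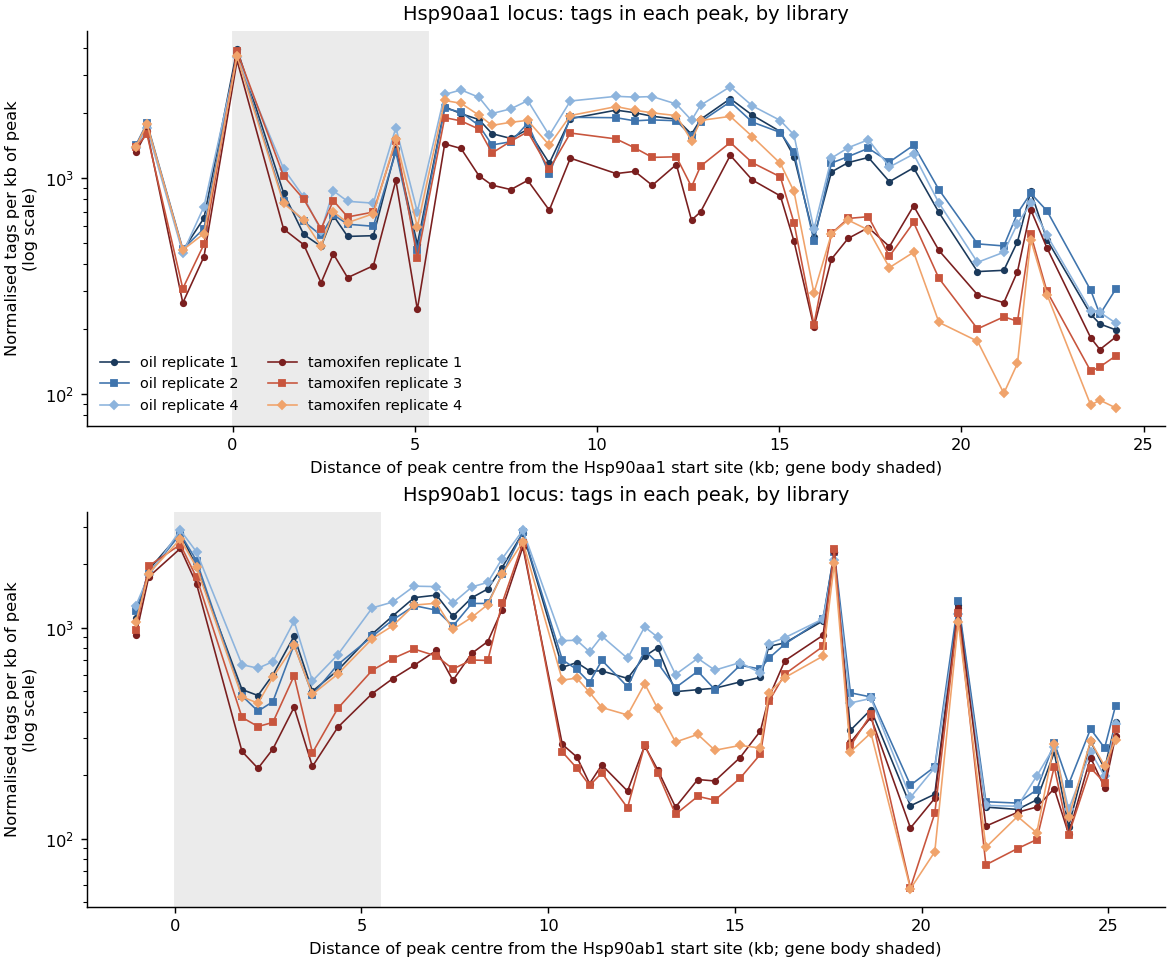
Normalised tags per kb of peak (log axis) in each of the 94 peaks, plotted for each library against the distance of the peak centre from the start site of Hsp90aa1 (top) or Hsp90ab1 (bottom), in kb, with the gene body shaded. The 6 lines run together at the Hsp90aa1 start site, while at that of Hsp90ab1 the tamoxifen lines lie slightly lower. Downstream the lines part, and the 3 tamoxifen libraries (red to orange) lie below the 3 oil libraries (blue) over long stretches.

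Body peaks were nearer to the oil level at Hsp90aa1 than at Hsp90ab1, a difference between the genes that was not tested. Over the 8 Hsp90aa1 body peaks the summed tags were 1709, 1739 and 2266 after oil and 1203, 2008 and 1871 after tamoxifen. Only tamoxifen replicate 1 lay below the oil libraries, and 0 of the 8 peaks separated the groups. Of all peaks of the series 10.0% had every tamoxifen value below every oil value. Tamoxifen stood at 88.9% of oil, a log2 ratio of the means of -0.17 with a pooled SD between libraries of 0.33, and without tamoxifen replicate 1 the ratio was 0.03.

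Over the 7 Hsp90ab1 body peaks the summed tags were 1625, 1536 and 1991 after oil and 795, 1060.2 and 1531 after tamoxifen. All tamoxifen libraries were below all oil libraries, replicate 4 only just. Tamoxifen stood at 65.7% of oil (log2 ratio -0.61, pooled SD 0.36). Of the 7 peaks 4 had every tamoxifen value below every oil value, where 10.0% of all peaks of the series did so.

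Single body peaks followed their zones. The Hsp90aa1 body peak with the most oil tags per kb, in intron 10, held 603, 586 and 759 tags after oil and 432, 658 and 672 after tamoxifen (log2 fold change -0.15, SE 0.23), and the groups overlapped. The Hsp90ab1 counterpart lay at the end of the gene and is annotated to the end of Slc35b2. It held 211, 206 and 281 tags after oil and 110.2, 142 and 201 after tamoxifen (log2 fold change -0.62, SE 0.29), with each tamoxifen value below each oil value.

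**Figure D2:**
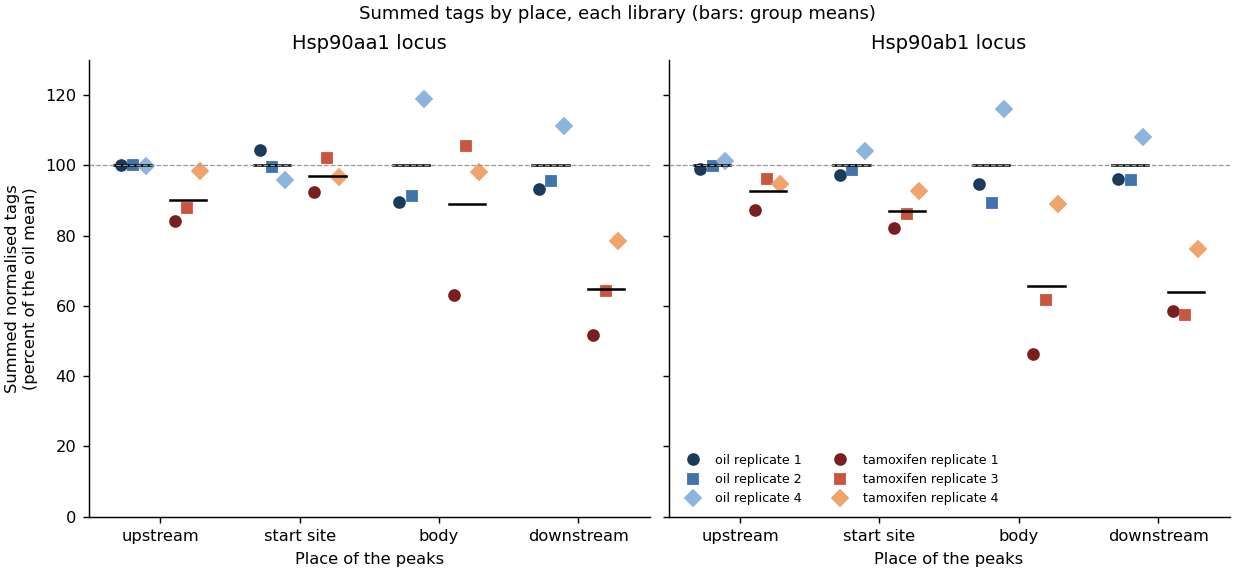
Summed normalised tags of the upstream, start-site, body and downstream peaks in each library, as a percent of the mean of the 3 oil libraries, with bars for the group means. Downstream, tamoxifen means are at 64.8% (Hsp90aa1) and 64.1% (Hsp90ab1) of oil, whereas at the start sites they are at 97.1% and 87.1%.

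Past the 3′ ends both loci were lower after tamoxifen. The 33 downstream peaks of Hsp90aa1 summed to 14011, 14373 and 16717 tags in the oil libraries and to 7792, 9642 and 11801 in the tamoxifen libraries, a ratio of 64.8% (log2 -0.63, pooled SD 0.23). The 37 downstream peaks of Hsp90ab1 summed to 8471, 8458 and 9519 tags after oil and to 5166, 5059 and 6721 after tamoxifen, a ratio of 64.1% (log2 -0.64, pooled SD 0.18). No tamoxifen library reached an oil library in either sum. The log2 fold change was negative in all 46 peaks of the Hsp90aa1 window and in 46 of the 48 of the Hsp90ab1 window, and all 3 tamoxifen values lay below all 3 oil values in 21 and 35 of them, where 10.0% of all peaks of the series did so.

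A peak was called where the groups differed more than 2-fold and the Benjamini-Hochberg adjusted p of DESeq2, taken over all peaks, was below 0.05. By this rule 8 peaks were lower at each locus and 0 higher. All 16 were downstream peaks. Over the whole series 0.0659% of peaks were called lower and 0.588% higher. Without a fold limit 10 peaks were lower at each locus, and 0.167% in the series. The same libraries chose the loci, so these counts are a description and nothing is read from them. Leaving out single libraries gave 5 to 9 lower calls at Hsp90aa1, the 5 without oil replicate 2. At Hsp90ab1 it gave 13 without tamoxifen replicate 4, 4 without tamoxifen replicate 3 and 5 without any 1 of the others. Over the whole series the lower calls shifted too. They numbered 116 with all libraries, 766 without tamoxifen replicate 4, 51 without tamoxifen replicate 3 and 48 to 86 without any 1 of the others.

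At Hsp90aa1 the 8 called peaks lay next to each other in intron 1 of 1700001K19Rik, with centres 10048 to 14026 bp past the 3′ end and log2 fold changes from -1.34 to -1.05. The most negative, with the sequence shown first above, held 249, 308 and 292 tags after oil and 125, 113 and 99.6 after tamoxifen (SE 0.15). Each tamoxifen library was below each oil library by a wide gap, and the values within a group were close.

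At Hsp90ab1 7 of the 8 called peaks lay in Nfkbie and 1 between genes, with centres 5954 to 14221 bp past the 3′ end and log2 fold changes from -1.53 to -1.07. The most negative, in intron 3 of Nfkbie with the sequence shown second above, held 164, 171 and 198 tags after oil and 46.4, 42.9 and 94.5 after tamoxifen (SE 0.37). Again no values overlapped, but tamoxifen replicate 4 stood apart from replicates 1 and 3, and without it the log2 fold change was -1.997.

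The peaks nearest the 3′ end of Hsp90aa1 were among its strongest downstream peaks per kb and lay closer to 0 than most. The one centred 464 bp past the end held 652, 643 and 745 tags after oil and 439, 582 and 698 after tamoxifen (log2 fold change -0.25, SE 0.20). The one at 911 bp held 482, 489 and 620.5 against 332, 446 and 538 (log2 fold change -0.27, SE 0.23). In both peaks tamoxifen replicate 4 lay within the range of the oil libraries.

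**Figure D3:**
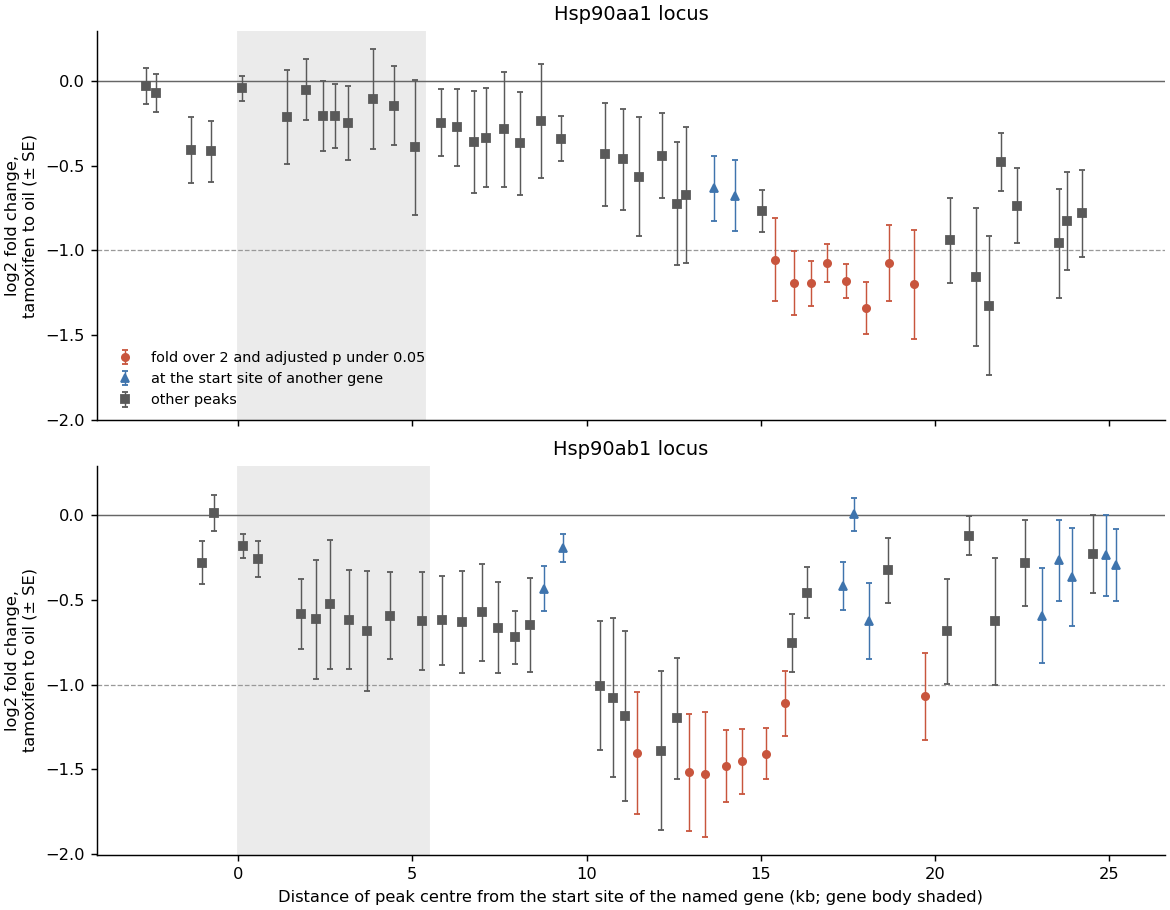
Log2 fold change of tamoxifen to oil with its SE (DESeq2) for each peak, against the distance of the peak centre from the start site of Hsp90aa1 (top) or Hsp90ab1 (bottom) in kb, with the gene body shaded and a dashed line at a 2-fold difference. Called peaks (circles) lie 10048 to 14026 bp past the 3′ end at Hsp90aa1 and 5954 to 14221 bp past it at Hsp90ab1, and peaks at start sites of other genes (triangles) lie nearer to 0 at Hsp90ab1.

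To follow the difference with distance, downstream peaks were summed in sections of 6000 bp, a division made after the values were seen. At Hsp90aa1 tamoxifen stood at 79.5% of oil in the first section, 59.7% in the second, 47.5% in the third and 56.2% in the last, which holds 3 peaks. At Hsp90ab1 it stood at 65.2%, 45.9%, 86.3% and 82.8%. The third of these sections holds the strong Nfkbie start-site peak described below. Over its 9 peaks the median log2 fold change was -0.59, and the 6 of them away from other start sites stood at 79.8% of oil. The lowest ratio stood at 12000 to 18000 bp past the end of Hsp90aa1 and at 6000 to 12000 bp past that of Hsp90ab1.

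The tamoxifen libraries changed order along the Hsp90aa1 stretch. Replicate 4 was at 102% of the oil mean in the first section and at 38.0% in the third, where it was the lowest library. Replicate 1 ran from 55.4% to 56.8% over the same sections, and replicate 3 from 81.0% to 47.6%. Replicate 4 was the highest tamoxifen library at 19 of the 33 downstream peaks, with centres 464 to 10596 bp past the end, and the lowest at 12, with centres 12090 to 18874 bp past it.

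The sums over the gene that lies there hide this order. Over the 18 peaks within 1700001K19Rik the 3 tamoxifen libraries summed to 3174, 3168 and 3176 tags, although they were ordered differently at its ends, and the oil libraries to 5752, 6401 and 6573. Oil replicate 4 was the highest oil library at 23 of the 33 downstream peaks of Hsp90aa1 and at 22 of the 37 of Hsp90ab1. At Hsp90ab1 tamoxifen replicate 4 stood at 85.1% of oil in the first section, against 54.3% and 56.3% in replicates 1 and 3, and at 78.3% in the third section, against 93.2% and 87.3%. This library stood apart over the whole series as well. Over all peaks its chi-square per degree of freedom was 2.66 against tamoxifen replicate 1 and 2.68 against replicate 3. The value was 1.48 between tamoxifen replicates 1 and 3, and 1.03 to 1.22 between oil libraries.

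**Figure D4:**
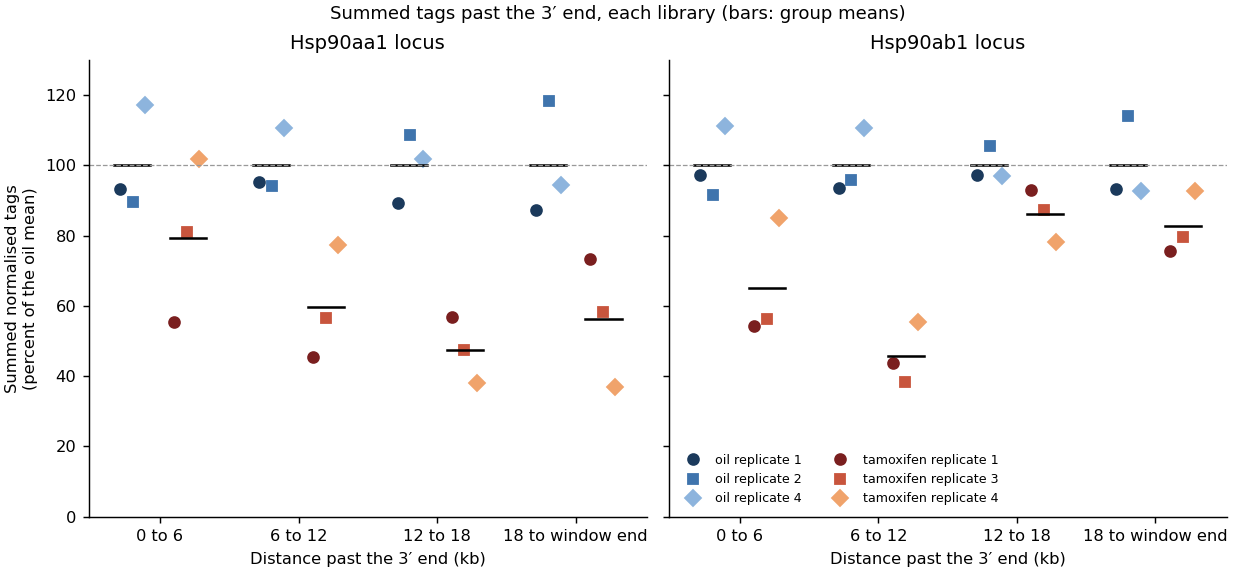
Summed normalised tags of the downstream peaks in sections by distance past the 3′ end (kb), each library as a percent of the mean of the 3 oil libraries, with bars for the group means. Tamoxifen replicate 4 is the highest tamoxifen library in the first 2 sections of both loci and the lowest in the third, and in the first Hsp90aa1 section it stands at 102% of oil.

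The downstream stretches hold start sites of other genes. At Hsp90ab1 the 10 downstream peaks at such start sites stood at 84.7% of oil, and the 27 away from them at 56.3%. Nfkbie, which encodes the NF-kB inhibitor IκBε, had 3 start-site peaks. The strongest held 569, 569 and 520.1 tags after oil and 572, 589 and 504 after tamoxifen (log2 fold change 0.00, SE 0.10). Its groups overlapped, while the other peaks, at -0.42 (SE 0.14) and -0.63 (SE 0.22), had every tamoxifen value below every oil value. Of all peaks of the series 10.0% had this order. The 15 peaks within the Nfkbie gene together stood at 45.5% of oil.

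Slc35b2, which encodes a transporter of the sulphate donor PAPS into the Golgi, had 2 start-site peaks. The stronger held 729.7, 734 and 749 tags after oil and 624, 651 and 662 after tamoxifen (log2 fold change -0.19, SE 0.08). The other held 442, 410.04 and 487 against 279, 299 and 411 (log2 fold change -0.43, SE 0.13). In the former, but not in the latter, every tamoxifen value lay below every oil value, as in 10.0% of all peaks of the series. At the start of Tmem151b, near the far end of the window, 5 peaks had log2 fold changes from -0.59 to -0.24.

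At Hsp90aa1 the start-site peaks of 1700001K19Rik had about the same ratio to oil as the peaks around them. The peak before its start, the strongest downstream peak per kb, held 896, 867 and 1019.6 tags after oil and 489.6, 562 and 742 after tamoxifen (log2 fold change -0.63, SE 0.19). Both start-site peaks together stood at 63.5% of oil, the 31 downstream peaks away from them at 65.0%. No downstream peak at the start site of another gene was called, 0 of 2 at Hsp90aa1 and 0 of 10 at Hsp90ab1. Of the start-site peaks of all protein-coding genes 0 of 26671 were called lower.

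Values at the window edges are given for scale. The member nearest the downstream edge of the Hsp90aa1 window had a log2 fold change of -0.78 (SE 0.26). The next peak, which crosses the edge and so is no member, had one of -0.43 (SE 0.17). At the downstream edge of the Hsp90ab1 window the values were -0.29 (SE 0.21) inside and -0.33 (SE 0.28) in the next peak, which also crosses the edge. At the upstream edges they were -0.03 (SE 0.11) inside and -0.24 (SE 0.31) outside for Hsp90aa1, and -0.28 (SE 0.12) and -0.49 (SE 0.41) for Hsp90ab1. In the 50000 bp beyond each edge no peak was called, and the median log2 fold change was -0.37 past the downstream edge of the Hsp90aa1 window and 0.04 past that of Hsp90ab1. Beyond the upstream edges the medians were -0.24 and -0.15.

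Both downstream stretches were rich in peaks already after oil. Among 21774 protein-coding genes, Hsp90aa1 ranked 2 and Hsp90ab1 ranked 12 by oil tags in peaks within 15000 bp past the 3′ end, with 13836 and 7935 tags against a median gene with 70.8. They held 25 and 28 peaks there, against a median of 1. Peaks covered 56.1% and 58.0% of these 15000 bp.

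A list of 47 other chaperone, cochaperone and heat shock factor genes, drawn up with earlier results of these data known, gave the setting. All were found in the annotation, and 0 of their 648 peaks lay in the windows. No start-site peak of these genes (0 of 76) was called lower, and no start-site peak of all protein-coding genes was (0% of 26671). Without the fold limit 4 of the 76 and 18 of the 26671 were lower. Of their 223 body peaks 22 were called lower (9.87%), against 0.0815% of the body peaks of all protein-coding genes. Of their 355 peaks within 15000 bp past the 3′ end 39 were (11.0%), against 0.123% of all such peaks. Some peaks count in both places, and 59 of the 648 were called lower with each peak counted once. The median log2 fold change was -0.26 in the body and -0.35 downstream, against 0.00 and -0.02 over the peaks of all protein-coding genes. None (0) of the peaks of the list was called higher.

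The lower calls of the list came from 5 of the 47 genes. Hsph1, which encodes an HSP110 nucleotide exchange factor of HSP70, had 31 called among 55 peaks. The adjacent genes Hspa1a and Hspa1b, which encode the inducible HSP70, had 25 among 54. Hspe1, the mitochondrial cochaperonin of Hspd1, had 2, and Dnaja4, which encodes an HSP40 cochaperone, had 1. Hsf1 itself had a log2 ratio of 0.03 at its start site and -0.04 downstream.

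Dnajb1 and Hspd1, which encodes the mitochondrial HSP60, had values close to those of the HSP90 genes. Past the 3′ end the log2 ratio was -0.60 for Hsp90aa1 and -0.69 for Hsp90ab1 over 15000 bp, -0.65 for Dnajb1, which encodes an HSP40 that loads clients onto HSP70, -0.60 for Hspd1 and -0.48 for Hspa8, the constitutive HSP70. It was -2.29 for Hsph1. Among the dedicated HSP90 cochaperones it was -0.33 for Ahsa1, which stimulates the HSP90 ATPase, -0.06 for Ptges3 (p23), 0.01 for Cdc37, which delivers kinases, and 0.12 for Stip1, which joins HSP70 to HSP90. Hsp90b1, the form of the endoplasmic reticulum, was at 0.03.

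**Figure D5:**
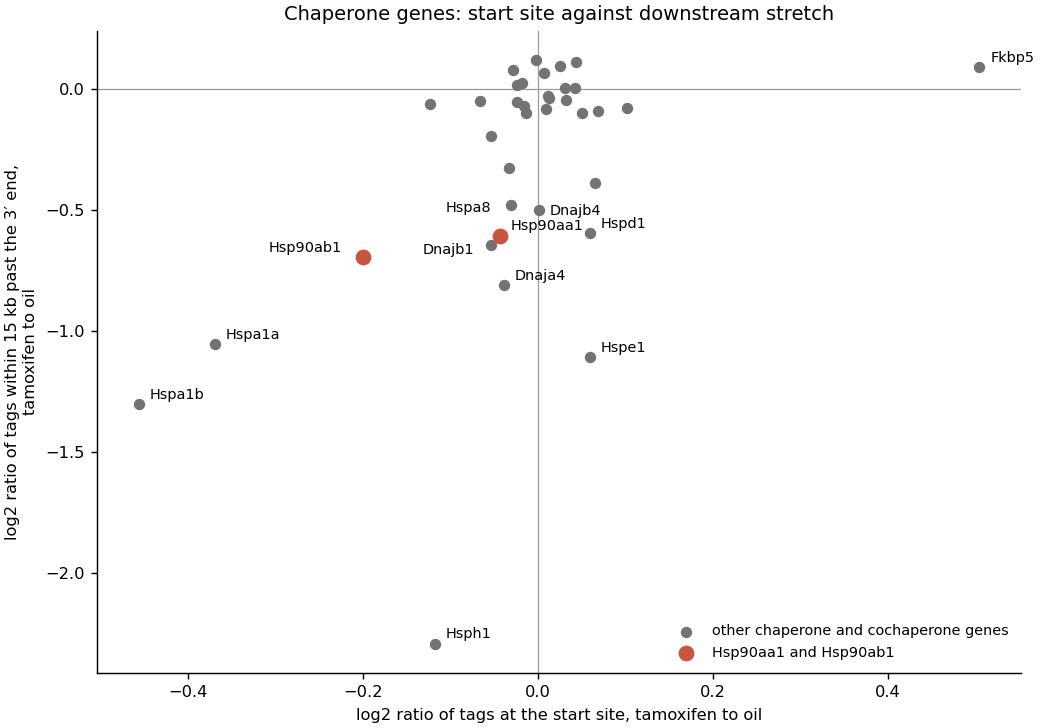
Log2 ratio of tamoxifen to oil for tags within 15 kb past the 3′ end (vertical axis) against that at the start site (horizontal axis), for Hsp90aa1, Hsp90ab1 and 34 other genes of the chaperone list with at least 200 oil tags in both places. Hsp90aa1 (-0.04 at the start, -0.60 downstream) lies close to Dnajb1 (-0.05, -0.65), and Hsp90ab1 (-0.20, -0.69) between these and Hspa1a (-0.37, -1.06).

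The downstream sums of other genes were compared with those of the HSP90 genes over the 6 libraries, on a log2 scale, for genes with at least 200 tags. The points are 6 libraries of 2 groups, the same for every gene. Of the genes compared, 205 of 8386 had a Pearson r over 0.9 with Hsp90aa1 and 385 of 8384 with Hsp90ab1, so the values are a description. The 5 most like Hsp90aa1 were Slc29a1, Slc35b2, Poli, E130308A19Rik and Lrp10 (r from 0.990 to 0.998). Slc29a1 and Slc35b2 lie beside Hsp90ab1, and 7 and 11 of their 18 peaks each are peaks of the Hsp90ab1 window. The 5 most like Hsp90ab1 were Hsph1, Rd3, Lonrf1, Lmnb1 and Neu1 (r from 0.995 to 0.998). Their sizes were unlike, from a log2 ratio of -2.29 at Hsph1 and -1.52 at Neu1 to -0.06 at Rd3. Between Hsp90aa1 and Hsp90ab1 r was 0.947, which ranked 65 among the genes for Hsp90aa1 and 140 for Hsp90ab1.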

How the data were processed

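The authors deposited 1 table of ATAC-seq tags per peak for 6 libraries. Its values are an estimated count, deposited in steps of 0.5 tag with at most 3 tags kept per position, on peaks merged over both groups. Bowtie2, HOMER and mm10 are named in the submitters' processing notes, with versions not given in the sources used here. Tags were rounded to whole numbers, and tamoxifen was compared with oil over all 175929 peaks in DESeq2 1.42.0 (R 4.3.3) with Benjamini-Hochberg adjustment. The fit was tested on simulated data. The members and lists were chosen with earlier results of these data known, and the sections of 6000 bp after their values were seen. Peaks named at each locus are the start-site peaks, the body peak and the 3 downstream peaks with the most oil tags per kb, those with the most negative and the most positive log2 fold change at a mean of 50 or more tags, and those at the window edges. Other genes' start-site peaks were added after their values were seen. Zone sums, ratios, motif counts and figures were made in Python 3.11.15 with numpy 2.4.6, pandas 2.3.3 and matplotlib 3.10.9. Alternatives were edgeR 4.0.16, other size factors, a low-count filter, separate fits of distal and proximal peaks, a replicate block and leaving out each library. Same-numbered libraries did not deviate together over all peaks (r = -0.044 and 0.051). Only the numbers 1 and 4 are shared, and the median peak held 50.0 oil tags, few enough for counting noise to lower r. These values therefore cannot exclude pairing. Promoter sequences of Hsp90aa1 and Hsp90ab1 are named only.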

Additional observations from a re-analysis of the deposited data

How the results depend on the processing

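The lower calls numbered 8 at each locus. A fit with a replicate block used replicates 1 and 4 of each group only, without oil replicate 2 and tamoxifen replicate 3. In it the lower calls numbered 3 at Hsp90aa1 and 2 at Hsp90ab1, and 33 over the whole series, against 116 in the main fit. Whether same-numbered libraries are pairs is not known. Leaving out 1 library at a time gave 5 to 9 lower calls at Hsp90aa1 and 4 to 13 at Hsp90ab1, and 48 to 766 over the whole series. These changes also alter the number of libraries or degrees of freedom, and the cause was not tested further. Other size factors, edgeR (7 at each locus), a low-count filter and separate fits of distal and proximal peaks stayed within 1.5 times the 8. Over the whole series edgeR called 249 peaks lower, against 116 in the main fit. The separate fits called 135, and the other size factors and the filter 114 to 123. No alternative gave a higher call. Leaving out 1 library moved the downstream log2 ratio from -0.79 to -0.49 at Hsp90aa1 and from -0.79 to -0.57 at Hsp90ab1, and the Hsp90aa1 body ratio from -0.31 to 0.03. Of 195 alternatives for named peaks, 1 moved by more than the spread between libraries.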
